A study of Mus musculus with 10 samples.

Results

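The small proline-rich (Sprr) genes were followed here through 10 RNA libraries of mouse skin. The family list held 10 symbols (Sprr1a, Sprr1b, Sprr2b, Sprr2d, Sprr2e, Sprr2f, Sprr2g, Sprr2h, Sprr2i and Sprr3), and members were the genes of that name in both deposited tables of mouse expression values. Of these, 9 were found among 9779 genes, and all 9 passed the filter on low reads that left 5245 genes to test. Sprr3 was not analysed here. Members were taken by name alone, while the family was picked for study with earlier results of these data known. Sprr2a3 and Sprr2j-ps also carried the family name in both tables but were not on the list and did not pass the filter. Sprr2a3 had 1 read in the benzamil libraries together, 50 reads in the DMSO libraries and 0 in the untreated libraries, and Sprr2j-ps had 0, 68 and 0 reads in the same groups.

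All mice were C57BL/6 animals (c57/Bl6 in the labels) aged 6 to 8 weeks, and treatment was topical for 6 days. In the benzamil group (n = 4), imiquimod was given together with benzamil, which blocks epithelial sodium channels and is related to amiloride. The DMSO group (n = 4) received imiquimod, a Toll-like receptor agonist that produces psoriasis-like inflammation in mouse skin, with the solvent DMSO, and the untreated group (n = 2) received neither. Imiquimod was thus shared by the benzamil and DMSO groups, and its effect and that of DMSO cannot be told apart in the comparison of DMSO with untreated skin. The sample labels give ear skin throughout, while back skin is named for the untreated mice in the series' design, so body site and treatment may differ together in comparisons with that group. No label states that the replicates were separate animals, so the spread behind each p-value is that between samples and may be technical. The libraries were 3′ tag libraries, in which each fragment comes from near the end of a transcript, so values were not divided by gene length.

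Sprr proteins are short precursors of the cornified envelope, the protein shell that replaces the plasma membrane of dying keratinocytes at the skin surface. They are rich in proline, glutamine and lysine, and transglutaminases cross-link them to each other and to loricrin, involucrin and other precursors. Sprr genes are known to be expressed little in the epidermis of resting mouse skin and more in inflamed or wounded skin and in stratified internal epithelia. Their genes lie together in the epidermal differentiation complex, a cluster that also holds the loricrin, involucrin, filaggrin, S100 and late cornified envelope (Lce) genes.

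The 9 members lay on chromosome 3 of mm10 between positions 92316620 and 92485895 (GENCODE M21), a span of 169 kb that held no other tested gene. Sprr2b, Sprr2d, Sprr2e, Sprr2f, Sprr2g, Sprr2h and Sprr2i stood on the plus strand in that order, followed by Sprr1b and Sprr1a on the minus strand. GENCODE M21 types Sprr2g (positions 92373915 to 92375229) as a polymorphic pseudogene and the other 8 members as protein coding.

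Sequences of 250 bases before the RefSeq start (GRCm38.p6) were at hand for 9 of the 10 listed genes, all but Sprr2g. They are shown for both Sprr1 genes and for 3 Sprr2 genes, as examples of both subfamilies. Capitals mark the letters of 3 motifs, each searched on both strands. These are the AP-1 motif TGAGTCA, the octamer ATTTGCAT, and the TATA box. The windows are chr3:92485882-92486131 and chr3:92438780-92439029 on the minus strand, and chr3:92316455-92316704, chr3:92338890-92339139 and chr3:92385435-92385684 on the plus strand, each printed 5′ to 3′ in the direction of transcription.
Sprr1a: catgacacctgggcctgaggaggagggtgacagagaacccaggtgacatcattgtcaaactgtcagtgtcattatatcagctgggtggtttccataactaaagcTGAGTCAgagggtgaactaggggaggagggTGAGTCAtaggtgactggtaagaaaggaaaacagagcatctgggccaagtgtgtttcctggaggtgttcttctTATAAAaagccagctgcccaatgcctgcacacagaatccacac
Sprr1b: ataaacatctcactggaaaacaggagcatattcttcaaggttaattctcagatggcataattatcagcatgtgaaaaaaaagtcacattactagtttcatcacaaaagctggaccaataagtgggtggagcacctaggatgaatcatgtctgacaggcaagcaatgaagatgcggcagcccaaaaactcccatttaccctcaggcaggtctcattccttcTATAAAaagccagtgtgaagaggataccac
Sprr2b: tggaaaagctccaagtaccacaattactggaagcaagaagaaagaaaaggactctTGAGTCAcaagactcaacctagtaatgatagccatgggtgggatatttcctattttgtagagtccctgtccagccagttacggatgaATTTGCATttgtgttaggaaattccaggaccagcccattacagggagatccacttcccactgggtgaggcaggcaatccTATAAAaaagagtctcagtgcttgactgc
Sprr2d: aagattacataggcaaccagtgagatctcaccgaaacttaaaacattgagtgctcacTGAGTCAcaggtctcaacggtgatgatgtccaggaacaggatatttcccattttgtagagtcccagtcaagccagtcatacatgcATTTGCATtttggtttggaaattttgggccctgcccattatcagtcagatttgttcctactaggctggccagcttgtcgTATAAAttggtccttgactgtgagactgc
Sprr2h: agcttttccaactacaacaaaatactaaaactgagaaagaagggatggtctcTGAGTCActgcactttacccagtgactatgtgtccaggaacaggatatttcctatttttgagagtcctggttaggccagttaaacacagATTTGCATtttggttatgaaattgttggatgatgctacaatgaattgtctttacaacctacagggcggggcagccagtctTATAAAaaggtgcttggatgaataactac
The AP-1 letters stood in 7 of the 9 windows against 4.46% of 32851 mouse promoter windows of the same length. All 6 Sprr2 windows held them at 193 to 198 bases before the start, and Sprr1a held them at 146 and at 116 bases before it. The octamer letters stood in the same 6 Sprr2 windows, 108 to 112 bases before the start, against 1.60% of all windows, and in none of the Sprr1a, Sprr1b and Sprr3 windows. The TATA box, searched as TATAAA, was present in 9 of 9 windows and in 12.4% of all. The STAT motif, TTCNNNGAA, was found in 0 of the 9 and in 7.02% of all. Further motifs searched were also in 0 of the 9, the interferon response motif (2.98% of all) and the NF-kB motif (1.41% of all). No capital of these motifs overlapped another. In alignments that allowed gaps, identical bases were counted as a share of the 250 bases. Sprr2d and Sprr2e were the closest pair at 90.0%, and Sprr2d and Sprr1a the most distant at 56.4%. Among the 6 Sprr2 windows identity ran from 66.8% to 90.0%, with the AP-1 and octamer letters at similar distances from the start. Their matches therefore cannot be counted as independent, and the shares of all windows are given as a description. These matches describe letters in a window, and binding at them was not tested.

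The libraries were shallow and differed in depth. Over the 9779 genes they held 138440 to 375455 reads in the benzamil group, 259262 to 935714 in the DMSO group, and 74614 and 71144 in the untreated libraries. Levels are given as CPM, the reads of a gene relative to the TMM-scaled total of the library's tested reads. A count of 0 allows up to 3 reads, which corresponds to 9.10 to 23.8 CPM in a benzamil library, 3.12 to 11.0 CPM in a DMSO library, and 40.4 and 44.5 CPM in the untreated libraries. These limits and all intervals below cover counting error only. Ribosomal RNA genes took 31.0% to 45.7% of reads in benzamil libraries, 22.1% to 28.8% in DMSO libraries, and 34.2% and 38.6% in untreated libraries.

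The comparison of benzamil with DMSO addressed what the channel blocker changed in imiquimod-treated skin. The 9 tested Sprr genes were all lower with benzamil in edgeR's quasi-likelihood test, with a threshold of 0.05 on the p-value adjusted by Benjamini-Hochberg over all tested genes. Of the 5245 tested genes, 12.1% were called lower and 9.91% higher. The filter asks for enough reads in 2 libraries, and 5 members (Sprr2b, Sprr2e, Sprr2f, Sprr2g and Sprr2i) met it through the DMSO libraries alone, so the counts over members are a description. With no filter the same 9 genes were called lower. The median log2 fold change of the 9 was -2.84, against -0.01 over all tested genes. Added over members, Sprr reads made up 0.0463%, 0.0651%, 0.0280% and 0.127% of the reads in benzamil libraries 1 to 4, and 0.565%, 0.404%, 0.366% and 0.209% in DMSO libraries 1 to 4. The highest benzamil library therefore lay below the lowest DMSO library. Group means were 0.0666% ± 0.0431 with benzamil and 0.386% ± 0.146 with DMSO (SD, n = 4 each), and the untreated libraries had 0.00536% and 0% (0 of 71144 reads, which allows a share of up to 0.00422%). In bulk skin, fewer cells expressing a gene and less RNA per cell cannot be told apart.

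The Sprr1 genes, which encode envelope precursors expressed in inflamed and regenerating epithelia, were lower with benzamil and had the fitted changes nearest to 0. That order held for both genes in 17 of 19 alternatives. Without benzamil library 2, Sprr1b changed by -2.21 and Sprr2h by -2.12, and with thinned reads Sprr1b changed by -2.13 and Sprr2e by -1.96. Sprr1a had 121, 160.3, 73.4 and 199 CPM in benzamil libraries 1 to 4, against 609, 354, 309 and 178 CPM in DMSO libraries 1 to 4. The groups overlapped, since benzamil library 4 exceeded DMSO library 4. The log2 fold change was -1.43 ± 0.30 (edgeR adjusted p = 0.00156, the ± being an approximate standard error throughout), and it was -1.02 without DMSO library 1 (adjusted p = 0.0135). Sprr1b had 158, 414, 140.1 and 294 CPM with benzamil, against 1309, 894, 835 and 499.7 CPM with DMSO. Here the groups did not overlap, and benzamil library 2 was the highest of its group. Sprr1b changed by -1.81 ± 0.29 (edgeR adjusted p = 0.000118).

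Sprr2d and Sprr2e, neighbouring Sprr2 genes with the most alike promoter windows, were both lower with benzamil. Sprr2d had 143, 46.7, 86.7 and 397 CPM in the benzamil libraries, against 1440.0, 1207, 1012 and 686 CPM in the DMSO libraries. Every benzamil library was below every DMSO library, and benzamil library 4 stood highest. The change was -2.84 ± 0.37 (edgeR adjusted p = 8.25e-06). Sprr2e had 27.3, 20.0, 33.4 and 135 CPM with benzamil, against 476, 281, 221 and 122 CPM with DMSO. Its groups overlapped through library 4 of each group alone. Sprr2e changed by -2.70 ± 0.43 (edgeR adjusted p = 0.000102).

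Sprr2h, a further Sprr2 precursor gene, had 54.6, 30.05, 53.4 and 151 CPM with benzamil, against 474, 384, 331 and 167 CPM with DMSO. The groups were separated by the narrow gap between library 4 of each. It changed by -2.44 ± 0.35 (edgeR adjusted p = 3.59e-05). Sprr2i had 9.10, 6.68, 0 and 127 CPM with benzamil, against 361, 267, 224 and 105 CPM with DMSO. Benzamil library 4 held 16 of the 21 benzamil reads of Sprr2i and lay above DMSO library 4. Its change of -3.29 ± 0.54 (edgeR adjusted p = 0.000136) became -5.18 without benzamil library 4. With DESeq2 on the same reads Sprr2i missed the threshold (adjusted p = 0.124), and the authors' deposited table likewise gave it an adjusted p of 0.104.

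Sprr2b, Sprr2f and Sprr2g were nearly or wholly without reads in the benzamil group. Sprr2b had 0 reads in all 4 benzamil libraries, against 287, 192, 132 and 88.8 CPM (415 reads) in the DMSO libraries. Taking 3 reads over the benzamil group as the limit, pooled reads put Sprr2b at least 63.7-fold lower with benzamil (edgeR adjusted p = 9.39e-07). DMSO library 1, the deepest, held 276 of the 415 reads, and the bound was 41.8-fold without it, 40.5-fold without benzamil library 1 and 52.8-fold from the DMSO group mean. Sprr2f had 12.1, 0, 0 and 55.6 CPM with benzamil, from 11 reads, against 251, 216, 217 and 97.2 CPM with DMSO. Its benzamil reads fell in libraries 1 and 4 alone. Sprr2f changed by -3.95 ± 0.51 (edgeR adjusted p = 8.64e-06). Sprr2g had 3.03, 3.34, 0 and 39.7 CPM with benzamil, from 7 reads of which 5 were in library 4, against 287, 140.5, 213 and 99.9 CPM with DMSO. In neither gene did the groups overlap. Sprr2g changed by -4.52 ± 0.53 (edgeR adjusted p = 3.21e-06).

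**Figure D1:**
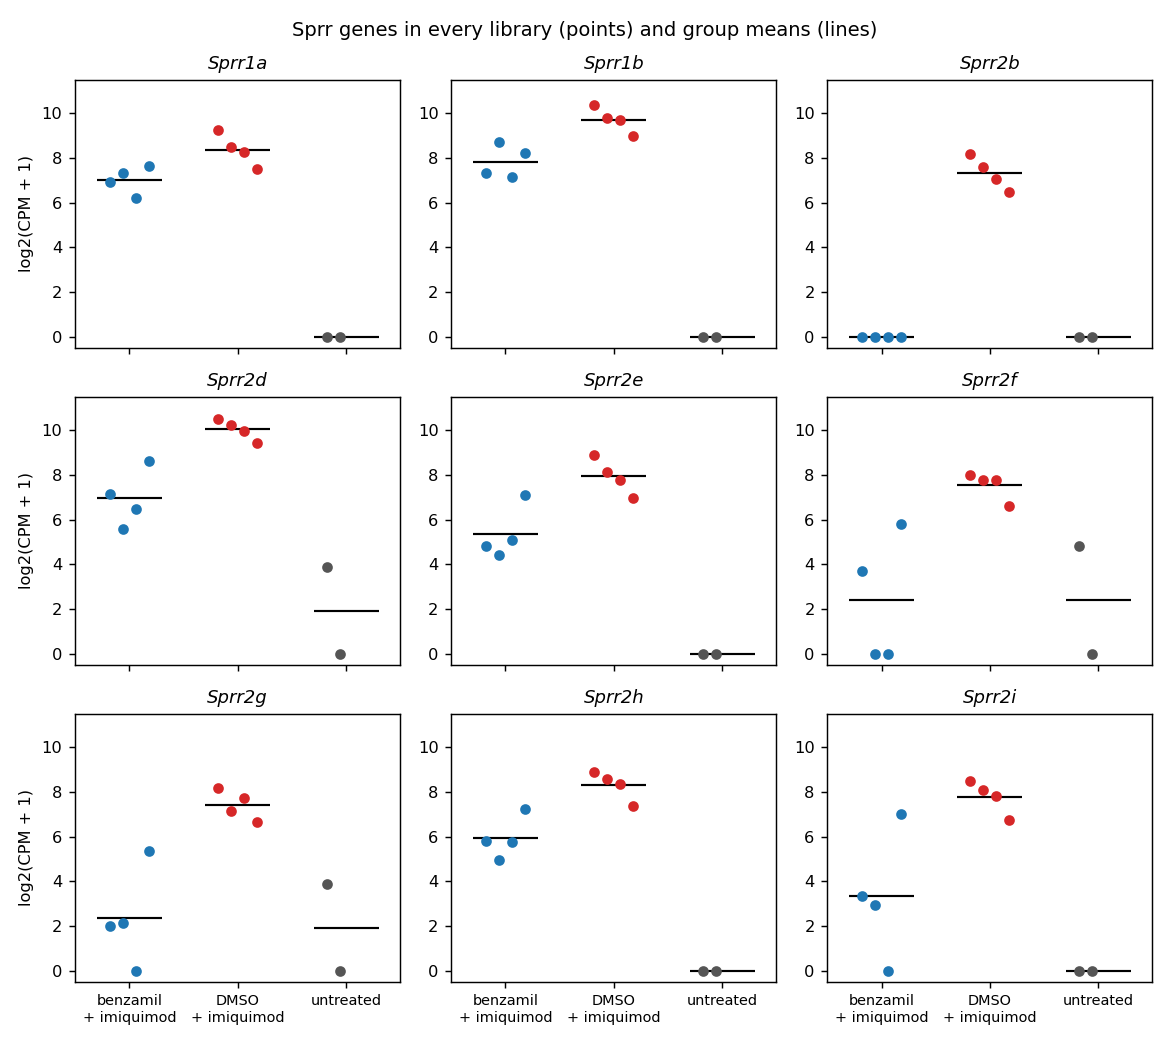
Level of the 9 Sprr genes as log2(CPM + 1), with 1 point per library (replicate 1 to the left) and a line at the group mean, for benzamil with imiquimod (n = 4), DMSO with imiquimod (n = 4) and untreated skin (n = 2). DMSO library 1 is the highest and DMSO library 4 the lowest of its group in all 9 panels, and Sprr2b sits at 0 in every benzamil and untreated library.

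In all, groups did not overlap in 6 of the 9 members (Sprr1b, Sprr2b, Sprr2d, Sprr2f, Sprr2g and Sprr2h), against 13.4% of tested genes whose benzamil libraries all lay below the DMSO libraries. Each of the 9 calls was kept when any 1 of the 10 libraries was left out. Benzamil library 4 was the highest of its group in 7 of the 8 members with benzamil reads, and without it the log2 fold change was -6.01 for Sprr2g, -5.17 for Sprr2f, -3.44 for Sprr2e, -3.53 for Sprr2d and -2.91 for Sprr2h. Limma on the deposited log2 values called 9 members lower, against 7.08% of the genes it tested.

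**Figure D2:**
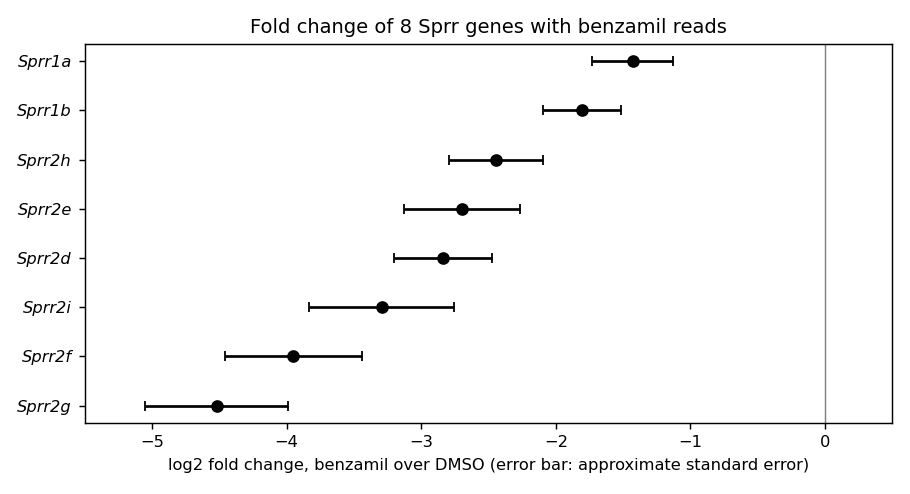
Log2 fold change of benzamil over DMSO for the 8 members with reads in the benzamil group, ordered by size, with error bars of 1 approximate standard error (edgeR). Sprr1a (-1.43) and Sprr1b (-1.81) lie nearest to 0 and Sprr2g (-4.52) farthest from it, and Sprr2b is left out because it had 0 benzamil reads.

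The members' shares of the family's reads are described per library, without a test. The ranges of the benzamil and DMSO libraries overlapped for Sprr1b, Sprr2d, Sprr2e, Sprr2h and Sprr2i. They did not overlap for Sprr1a, Sprr2b, Sprr2f and Sprr2g. The 7 Sprr2 genes together made up 47.1%, 15.7%, 44.8% and 64.8% of Sprr reads in benzamil libraries 1 to 4, a mean of 43.1% ± 20.3, and 65.1%, 68.3%, 67.3% and 66.8% in DMSO libraries 1 to 4, a mean of 66.9% ± 1.34 (SD, n = 4 each). The benzamil libraries were thus scattered and the DMSO libraries nearly equal, with benzamil library 4 close to the DMSO libraries. These shares rest on 58 to 204 Sprr reads in a benzamil library and 736 to 5287 in a DMSO library, so in benzamil library 3 the exact 95% binomial interval ran from 31.7% to 58.5%. Sprr1b averaged 37.0% ± 17.1 of Sprr reads with benzamil and 23.7% ± 0.73 with DMSO, and in benzamil library 2 it reached 60.8%. Sprr1a averaged 19.9% ± 4.32 with benzamil and 9.40% ± 1.13 with DMSO. Among the Sprr2 genes, Sprr2d averaged 21.2% ± 9.88 with benzamil and 29.9% ± 3.08 with DMSO, whereas Sprr2h had 9.84% ± 3.93 and 9.00% ± 0.74 in the same order.

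**Figure D3:**
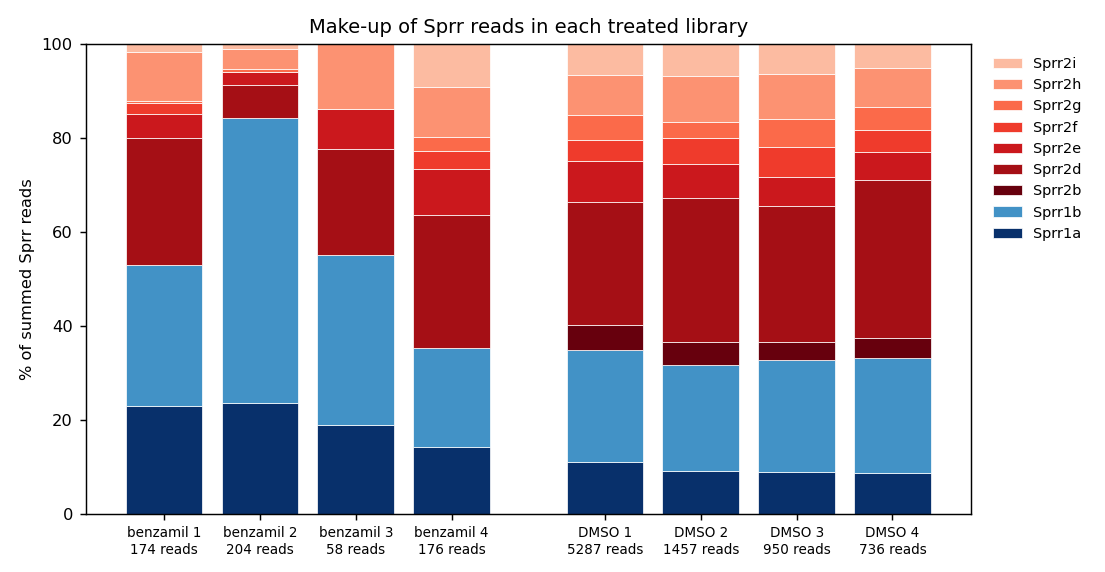
Make-up of the Sprr reads in each benzamil and DMSO library, as percent of the reads of the 9 members, with the number of Sprr reads under each bar. Blue parts are the Sprr1 genes and red parts the Sprr2 genes, and the 4 DMSO bars look alike while Sprr1 parts vary from 35.2% of the bar in benzamil library 4 to 84.3% in benzamil library 2.

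Whether 2 members differed in their response was tested on the ratio of their reads within each library, with 0.5 reads added to each. Such a ratio does not depend on scaling where both members have many reads. With few reads the 0.5 added weighs more, and the ratio moves with depth. This holds for pairs with Sprr2b, Sprr2f or Sprr2g, which had 0, 11 and 7 benzamil reads. The same applies to pairs with Sprr2i, which had 3, 2, 0 and 16 reads in benzamil libraries 1 to 4. None of the 36 pairs passed a two-sided exact permutation test after Benjamini-Hochberg adjustment over the pairs, where the lowest adjusted p was 0.0605. Before adjustment 17 pairs were at an exact permutation p = 0.0286, the smallest p that 4 against 4 libraries allow. These were 8 of the 14 pairs of a Sprr1 with a Sprr2 gene and 9 of the 21 pairs within Sprr2. Most of the 17 held a gene with few benzamil reads. Only Sprr1a with Sprr2d, Sprr2e or Sprr2h, and Sprr2d with Sprr2h, held none of Sprr2b, Sprr2f, Sprr2g and Sprr2i. With that limit no pair can pass over 36 pairs unless many others tie with it, whatever the size of its difference. The lack of a pass therefore does not show that members responded alike. The log2 ratio of Sprr1a over Sprr2d was 0.07 ± 1.17 with benzamil and -1.66 ± 0.30 with DMSO, a difference of 1.74 (SD, n = 4 each, exact permutation p = 0.0286, adjusted p = 0.0605). For Sprr1a over Sprr2g the ratio was 4.13 ± 1.29 with benzamil and 0.94 ± 0.34 with DMSO, a difference of 3.19 with the same p-values. Between the Sprr1 genes, the ratio of Sprr1a over Sprr1b was -0.80 ± 0.43 with benzamil and -1.34 ± 0.17 with DMSO (difference 0.54, exact permutation p = 0.0857, adjusted p = 0.134). Sprr2f over Sprr2g gave 0.11 ± 1.31 with benzamil and 0.10 ± 0.35 with DMSO, and with so few benzamil reads its spread does not show that the pair acted alike.

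Markers of other cell types moved between the same groups. Of 7 neutrophil markers, 3 were among the genes analysed, and their summed level was 107 to 2502 CPM in the benzamil group, 5827 to 9269.7 CPM in the DMSO group, and 135 and 14.8 CPM in the untreated libraries. S100a8, which keratinocytes also express, gave 671 of these reads in the benzamil group and 16014 in the DMSO group, Cxcr2 gave 14 and 123, and Retnlg had 0 reads in every benzamil library. Within the benzamil group the neutrophil sum was 919, 170.3, 107 and 2502 CPM in libraries 1 to 4, and library 4, the highest, was also the library with the highest Sprr share. The part of these cells in the result was not tested. The 8 keratinocyte markers, the defining genes of the epidermis, summed to 36664 to 40099.6 CPM with benzamil and 32804 to 40392 CPM with DMSO. Of these 8, 1 was called higher with benzamil, Krt15 (1.17 ± 0.28), and 0 lower. The sum hides opposed changes, since Krt10 (0.52 ± 0.24) and Krt1 (-0.56 ± 0.23) moved apart without passing. The 8 skeletal muscle markers summed to 612 to 1404 CPM with benzamil and 167 to 1004 CPM with DMSO, and 7 of the 8 were called higher with benzamil (median log2 fold change 1.38). The 7 fibroblast markers summed to 700.5 to 2208 CPM with benzamil and 525 to 1034 CPM with DMSO, and 1 of 5 tested was called higher. The 7 sebaceous gland markers summed to 5208 to 8831 CPM with benzamil, 2789 to 4124 CPM with DMSO, and 9085 and 6274 CPM in untreated skin, and 4 of 6 tested were called higher in benzamil over DMSO. The part of these tissues in the result was not tested.

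The comparison of DMSO with untreated skin addressed the induction by imiquimod with its solvent. The 9 tested members were all called higher in the DMSO group by edgeR, against 9.93% of tested genes called higher. In all 9 every DMSO library exceeded both untreated libraries, against 29.5% of tested genes. The 2 untreated libraries held 4 Sprr reads in all, 1 of Sprr2d, 2 of Sprr2f and 1 of Sprr2g, each in untreated library 1, and untreated library 2 held 0. This comparison shares its DMSO libraries with the one above, so the fall and the rise of a member are not independent results.

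Of the members without an untreated read, taking 3 reads over the untreated group as the limit and pooling DMSO reads, Sprr1b was at least 48.0-fold higher with DMSO (edgeR adjusted p = 2.34e-06) and Sprr1a at least 20.8-fold higher (edgeR adjusted p = 8.98e-05). For the Sprr2 genes of this kind the bound was at least 17.98-fold higher for Sprr2h, 16.01-fold for Sprr2e, 13.1-fold for Sprr2i and 9.98-fold for Sprr2b. These bounds do not rank the genes by induction, since they move with the depth of the untreated libraries and with DMSO library 1. Without DMSO library 1 they were 13.2-fold for Sprr1a, 9.80-fold for Sprr2e and 6.55-fold for Sprr2b. Without untreated library 1 they ran from 4.75-fold for Sprr2b to 22.9-fold for Sprr1b, and without untreated library 2 from 5.23-fold to 25.2-fold for the same genes. From DMSO group means they ran from 8.26-fold for Sprr2b to 41.8-fold for Sprr1b. Where untreated reads existed, the ratio of pooled reads was 170 for Sprr2d, with a counting interval of 30.5 to 6712, then 30.4 for Sprr2g (5.43 to 1205) and 15.003 for Sprr2f (4.13 to 124). Without untreated library 2 these ratios were 89.1, 15.96 and 7.87 in the same order. The fitted log2 fold changes of these 3 were 7.19 ± 0.97, 4.68 ± 1.06 and 3.77 ± 0.96 in that order (edgeR adjusted p = 1.21e-05, 0.00326 and 0.00753). All untreated reads of these 3 were in untreated library 1, and without untreated library 2 their values were 6.40, 3.89 and 2.97 in the same order. Sprr2f lost its call there (adjusted p = 0.0648) and with DESeq2 (adjusted p = 0.117). The median fitted log2 fold change of the 9 members was 9.21, and 4.17 with the 6 members without untreated reads set at their bound, against 0.18 over all tested genes. Limma on the deposited values called 9 members higher, against 24.1% of the genes it tested.

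The tissue makeup of the untreated libraries also stood apart. The 8 keratinocyte markers summed to 32804 to 40392 CPM in the DMSO group, against 17605 and 17738 CPM in untreated skin, and the 7 fibroblast markers to 525 to 1034 CPM in the DMSO group, against 18924 and 8261 CPM in untreated skin. Of the keratinocyte markers 4 were called higher in DMSO over untreated and 1 lower, Krt15 (-3.18 ± 0.33). The 8 skeletal muscle markers summed to 167 to 1004 CPM with DMSO, and to 3028 and 2640.0 CPM in untreated skin. The part of these cell types in the rise of the Sprr genes was not tested.

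Benzamil was also set against untreated skin. Sprr1a and Sprr1b were called higher with benzamil, 2 of 9 members, against 2.44% of tested genes called higher. Sprr1b was at least 12.2-fold higher (edgeR adjusted p = 0.00191) and Sprr1a at least 6.47-fold higher (edgeR adjusted p = 0.0155). Without untreated library 1 these bounds were 5.81-fold and 3.08-fold, and without untreated library 2 6.40-fold and 3.39-fold. The Sprr1a call was lost without either untreated library (adjusted p = 0.0941 and 0.0844), which leaves 1 untreated library that is assumed to vary like the other groups. Sprr2d did not pass (4.35 ± 1.29, edgeR adjusted p = 0.0541), and neither did Sprr2h with 54 benzamil reads (edgeR adjusted p = 0.0907, and 0.0432 with DESeq2), or Sprr2e with 37 reads (edgeR adjusted p = 0.235). Sprr2f and Sprr2g had pooled ratios of 0.861 (counting interval 0.188 to 8.00) and 1.10 (0.141 to 49.4), so neither direction nor size could be read at this depth. Sprr2b had 0 reads in both groups.

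Other genes of the cornified envelope went in both directions. Of 53 listed precursors outside the family, 44 were tested, and benzamil over DMSO gave 20 higher and 16 lower, with a median log2 fold change of 0.69. Over all tested genes 9.91% were called higher and 12.1% lower. Lce3a (-4.37 ± 0.56, edgeR adjusted p = 8.64e-06), Lce3b (-3.80 ± 0.55) and Lce3d (-3.33 ± 0.63), late envelope genes linked to barrier repair, were lower with benzamil. So were the cystatin-family gene Stfa1 (-2.71 ± 0.31) and Serpinb2, a serine protease inhibitor of differentiating keratinocytes (-2.19 ± 0.36). Flg2, a filaggrin-like protein of the granular layer, was higher (2.81 ± 0.28), as was the main envelope component loricrin, Lor (1.03 ± 0.29, edgeR adjusted p = 0.0117). Involucrin (Ivl), an early scaffold of the envelope and a near neighbour of the Sprr block, averaged 146 ± 42.1 CPM with benzamil and 161 ± 31.6 CPM with DMSO and did not pass (-0.11 ± 0.23, edgeR adjusted p = 0.772). In DMSO over untreated the list had 21 higher and 2 lower, with a median of 1.35, and in benzamil over untreated 15 were higher.

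Position within the complex was compared across 49 tested genes in the stretch of 3050 kb bounded by S100a13 and S100a10. Of the 40 that were not Sprr members, 12 were lower and 18 higher with benzamil, against 12.1% and 9.91% of all tested genes. The 6 tested Lce3 genes were all lower and lay 586 to 653 kb from the Sprr2d start, with Lce1 genes between them and the Sprr block. Of these Lce1 genes, Lce1k had the largest change, 2.01 ± 0.34 higher on the log2 scale with benzamil. Lce1c, Lce1e, Lce1h and Lce1j did not pass, and Lce1j lay below 0 (-0.24 ± 0.36). The split of the Lce genes by subfamily was made after their values were seen.

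**Figure D4:**
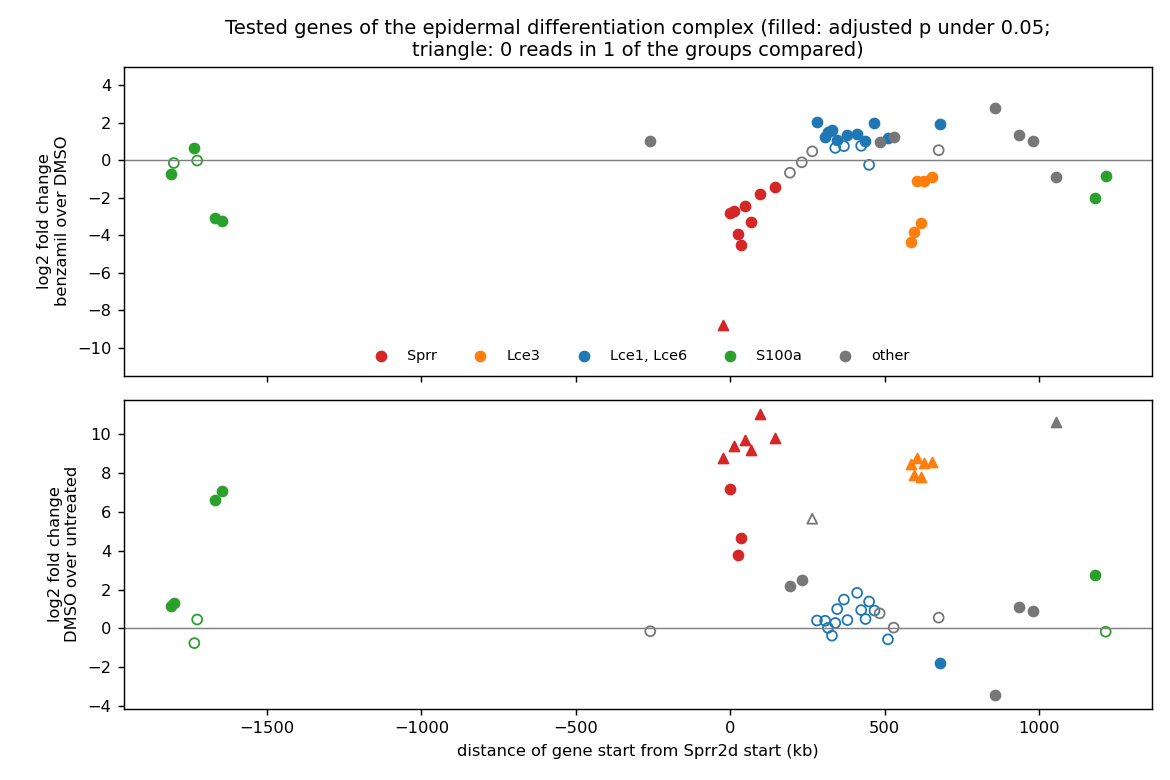
Log2 fold change of the 49 tested genes of the epidermal differentiation complex against the distance of the gene's lower end from that of Sprr2d in kb, for benzamil over DMSO (top) and DMSO over untreated (bottom). Filled symbols passed the edgeR test, and triangles mark genes with 0 reads in a group, whose fitted value depends on the prior count and has no fixed size. The Sprr genes and the Lce3 genes lie below 0 in the top panel, with mostly higher Lce1 genes between them.

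Among the enzymes that cross-link Sprr proteins, Tgm1, the transglutaminase of the keratinocyte membrane, had 5.17 ± 3.53 CPM with benzamil and 48.0 ± 18.4 CPM with DMSO (SD, n = 4 each), from 5 and 111 reads. It changed by -3.14 ± 0.55 (edgeR adjusted p = 0.000261). Tgm3, the soluble transglutaminase of the upper epidermis, had 264 ± 113 CPM with benzamil and 185 ± 24.3 CPM with DMSO and did not pass (0.42 ± 0.24, adjusted p = 0.222). Of 3 cross-linking genes tested, Tgm1 alone was called in benzamil over DMSO, and in DMSO over untreated it had 2.80 ± 1.10 (edgeR adjusted p = 0.0727).

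Of 21 tested transcription factors that act at Sprr promoters or in late epidermal differentiation, 6 were lower and 1 higher with benzamil, with a median of -0.19. The shares over all tested genes were 12.1% lower and 9.91% higher. In DMSO over untreated 7 of the factors were higher, against 9.93% of all tested genes, and 2 lower. Those lower with benzamil included the AP-1 subunits Junb (-2.31 ± 0.34) and Fosl2 (-1.57 ± 0.35). The cytokine-activated factor Stat3 (-1.39 ± 0.21) and the oxidative stress regulator Nfe2l2 (-1.06 ± 0.22, edgeR adjusted p = 0.00113) were lower too. The other lower ones were Cebpb (-0.96 ± 0.24) and Zfp750 (-0.92 ± 0.26), regulators of keratinocyte differentiation. The further AP-1 subunits tested, Fos (-0.92 ± 0.50), Jun (0.08 ± 0.22) and Jund (0.40 ± 0.21), did not pass. Pou3f1, an octamer-binding factor and the gene called higher, changed by 0.62 ± 0.22 (edgeR adjusted p = 0.0435) and was picked out after its value was seen. Pou2f3, the other listed gene with a Pou symbol, did not pass (0.67 ± 0.44, edgeR adjusted p = 0.294). It had 33 reads with benzamil and 45 with DMSO. Klf4, which drives barrier formation, averaged 742 ± 80.6 CPM with benzamil and 615 ± 183 CPM with DMSO and did not pass (0.26 ± 0.20, adjusted p = 0.381).

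Across the 10 libraries the levels of 2 members were correlated with Pearson r between 0.60 and 0.99 over the 36 pairs, with a median of 0.87. The closest pairs were Sprr1a with Sprr1b (0.99) and Sprr2e with Sprr2h (0.99), and the loosest was Sprr1b with Sprr2f (0.60). Outside the family, the genes most like the members' mean log2 CPM over the 10 libraries were Akr1b8 (r = 0.987), an aldo-keto reductase, Smpdl3a (0.985), Krt6b (0.984), a stress keratin, and Gjb2 (0.977), a gap junction connexin. Then came Ubr7 (0.976), Gk (0.976), Rbms1 (0.973) and the envelope precursor gene Stfa1 (0.972). Smarca2 (r = -0.990), Timp3 (-0.977) and Akap9 (-0.972) ran most opposed. All these values share libraries, scaling and the differences between the 3 groups, and are given as a description.

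Sequence likeness limits how far reads can be assigned to single members. In the last 300 bases of their transcripts (GENCODE M21), where 3′ tags arise, Sprr2b alone shared stretches of 50 bases exactly with another of the 17 Sprr genes compared, in 48 of its 251 windows. No member shared a stretch of 75 bases. How reads that match several genes were handled is not given in the sources used here, so Sprr2b values carry that reserve.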

How the data were processed

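RNA of mouse skin was measured in 10 libraries made from 500 ng of RNA with a 3′ mRNA kit with unique molecular identifiers and a 150-cycle sequencing kit, per the labels. The submitters' processing notes name STAR, featureCounts, DESeq2 and mm10, with versions not given in the sources used here, and whether identifiers were collapsed is not stated. The authors deposited, per the file headers, 2 tables of variance-stabilised log2 values, each normalized on its own, and 2 DESeq2 tables with a p-value (raw and adjusted), a Wald score, a log2 fold change and a mean signal per gene. The table of untreated skin is coded untreated over DMSO. A deposited table of counts per gene held 61533 identifiers, all human, and entered no comparison.

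The deposited unit was log2, so the planned count test ran on reads recovered by inverting the transform. All values (100%) were whole within 0.001 reads, a tolerance widened in proportion for high counts. Of the DMSO values, 39116 of 39116 were equal in both tables. The 9779 genes in both tables were joined. edgeR 4.0.16 (R 4.3.3) fitted 1 mean per group over 10 libraries with TMM scaling after filterByExpr (10 reads at typical depth, total 15). The approximate standard error is the size of the log2 fold change over the root of F. Limma 3.58.1 on the deposited values, DESeq2 1.42.0, other scalings, no filter, thinning, no ribosomal RNA genes, 2-group fits and left-out libraries were alternatives. Scripts were tested on simulated data. Members, gene lists (cornified envelope, cross-linking, transcription factors, cell type markers) and tests were chosen with earlier results of these data known. Genes outside the family were named by rule: the 8 most alike and 3 most opposed in r, at most 6 per list with the largest change among those passing, and Ivl, Lor, Tgm1, Tgm3, Klf4 and Nfe2l2. Outside this rule, Pou3f1, Pou2f3, Fos, Jun, Jund, some Lce1 genes and some cell type markers were named after their values were seen. Promoter sequences came from RefSeq (GRCm38.p6).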

Additional observations from a re-analysis of the deposited data

Results flagged for a closer look

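In 3 of 22 groups of libraries examined, a library stood apart from the rest of its group by Dixon's criterion (0.829 for 4 samples), which chance meets in about 1 in 20 groups. All 3 were benzamil library 4. It had 135 CPM of Sprr2e, against 20.0 to 33.4 CPM in the other 3 benzamil libraries. It had 39.7 CPM of Sprr2g, against 0 to 3.34 CPM in the others, and 127 CPM of Sprr2i, against 0 to 9.10 CPM. Benzamil library 4 was also the shallowest treated library, with 138440 reads, and had 2502 CPM of summed neutrophil markers against 107 to 919 CPM in the other benzamil libraries. In the benzamil group S100a8, which keratinocytes also express, gave 671 reads of this sum and Cxcr2 gave 14. A higher sum therefore does not show more neutrophils. The part of depth or of neutrophils was not tested. Without benzamil library 4 the benzamil means were 26.9 ± 6.67 CPM for Sprr2e, 2.12 ± 1.85 CPM for Sprr2g and 5.26 ± 4.71 CPM for Sprr2i (SD, n = 3).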

How the results depend on the processing

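The 9 lower calls in benzamil over DMSO and the 9 higher calls in DMSO over untreated were 8 or 9 under the 19 alternatives run for each. The exceptions were Sprr2i in benzamil over DMSO with DESeq2, and Sprr2f in DMSO over untreated with DESeq2 and without untreated library 2. Changes on the deposited log2 scale, tested with limma, were smaller for low genes, with -2.37 for Sprr2f and -2.24 for Sprr2i in benzamil over DMSO. In benzamil over untreated the 2 higher calls became 4 with no filter on low reads, adding Sprr2d and Sprr2h, and ran from 1 to 3 when a library was left out, with 1 without untreated library 1 or 2. The direction of Sprr2f there (-0.17) became 0.015 with no filter, 0.53 with thinned reads and 0.16 with DESeq2, and ran from -1.40 to 5.07 with a library left out (0.39 without benzamil library 2, 0.11 without benzamil library 3, 5.07 without untreated library 1). That of Sprr2g (0.15) ran from -1.34 without benzamil library 4 to 4.43, with -0.66 without untreated library 2. The cause was not tested. Limma could not be run on benzamil over untreated, since the tables were normalized separately. With the replicate number as a block the counts were 9, 9 and 2. With group means removed, same-numbered benzamil and DMSO libraries correlated at r = 0.07, 0.00069, 0.04 and 0.07, none over 0.1. Not every library correlated best with its own number. No pairing by number was seen, but low r in libraries this shallow cannot exclude one. Of 36 member pairs 0 passed under all 11 alternatives, where the block and left-out libraries make the exact test too small to pass. The bounds and pooled ratios were also recomputed from group means and with libraries left out, a choice made after seeing the data. The untreated libraries, with 74614 and 71144 reads, set the limit for members with few reads there.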

Other observations

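Marker lists of further skin cell types gave the following values. Of 5 Langerhans and dendritic cell markers 4 were analysed, summing to 133 to 262 CPM with benzamil, 145 to 217 CPM with DMSO and 267 to 310 CPM in untreated skin. The 4 macrophage markers analysed stayed below the filter and summed to 9.10 to 103 CPM with benzamil, 29.4 to 44.7 CPM with DMSO and 13.5 to 14.8 CPM in untreated skin. The 1 T cell marker analysed had 73.4 to 91.0 CPM with benzamil, 70.2 to 84.2 CPM with DMSO and 148 to 162 CPM in untreated skin. The endothelial and adipocyte markers were not analysed here.

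The deposited count table with human identifiers held 0 or 1 reads of SPRR symbols in each benzamil library and each DMSO library, and 3 and 0 reads in the untreated libraries.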
